A study of Mus musculus with 8 samples.

Results

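The Ikaros family factors considered here are the 5 zinc finger genes Ikzf1, Ikzf2, Ikzf3, Ikzf4 and Ikzf5 together with Bcl11a. They were chosen by gene symbol, and all 6 were found among the 52550 genes in the expression tables. Bone marrow B cell progenitors were sorted at the pre-pro-B and the later pro-B stage from WT C57BL/6J mice and from Lf-/- mice, which lack lactoferrin, a secreted iron-binding protein, through a germline knockout on the same background. RNA-seq values were analysed for 2 WT and 2 Lf-/- pre-pro-B libraries, and for 1 WT and 2 Lf-/- pro-B libraries. WT pro-B replicate 2 was not analysed here, so the WT pro-B value had no replicate. The mice were described as age-matched littermates, without a stated age, and neither genotype carried a further allele or received a treatment. Nothing in the labels tells whether replicates came from separate mice, so the p-values below measure the spread between these libraries, which may be technical.

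Ikaros (Ikzf1) and its relatives bind DNA through N-terminal zinc fingers and pair with themselves and with each other through C-terminal fingers. Ikaros recruits the NuRD chromatin remodelling and deacetylase complex, is needed for the lymphoid lineages, and in developing B cells restrains genes of the pre-B cell receptor while favouring exit from the cell cycle. Bcl11a is a zinc finger repressor outside the family that is needed in lymphoid progenitors for B cell development.

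FPKM, fragments per kilobase of transcript scaled to the library's mapped fragments, was the unit of every level, and differences were tested on log2(FPKM + 1), a scale that understates the change of low genes. FPKM sums were between 694578 and 834693 per library. From 10900000 to 15400000 fragments were estimated behind 6 libraries. No depth could be estimated for Lf-/- pre-pro-B replicate 2, which stood apart with 12172 genes above 0 where the other libraries had 19477 to 20250. Ltf, the lactoferrin gene, was at 2143 to 2731 FPKM in the WT libraries and at 88.2 to 168 FPKM in the Lf-/- libraries, so its RNA was low but not absent in the knockout. Ighm, the IgM heavy chain, was at 746 to 4830 FPKM in the 4 pre-pro-B libraries and at 385 to 960 FPKM in the pro-B libraries. Neutrophil markers made up 24.2% to 51.7% of the summed FPKM in every library.

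Ikzf1 lies at chr11:11685003-11772926 on the plus strand of GRCm38 (ENSMUSG00000018654). Bcl11a is on the same chromosome and strand, at chr11:24078056-24174123 (ENSMUSG00000000861). Both had entries among the RefSeq promoters of build GRCm38.p6, where 3 of the 6 members were found, Ikzf5 being the other. The stretches just before the start sites of Ikzf1 and Bcl11a are shown because these genes had higher FPKM in every Lf-/- library. Capitals mark TGGGAA, the core recognised by Ikaros proteins, or AGGAAG, a core for Ets factors such as PU.1, each searched on both strands as those 6 letters.
Ikzf1, chr11:11685675-11685924: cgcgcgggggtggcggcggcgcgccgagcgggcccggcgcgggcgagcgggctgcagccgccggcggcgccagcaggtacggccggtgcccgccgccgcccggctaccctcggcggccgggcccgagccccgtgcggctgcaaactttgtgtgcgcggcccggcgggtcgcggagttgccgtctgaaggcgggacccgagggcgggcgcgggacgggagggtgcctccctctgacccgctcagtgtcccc
Ikzf1, second start, chr11:11689927-11690176: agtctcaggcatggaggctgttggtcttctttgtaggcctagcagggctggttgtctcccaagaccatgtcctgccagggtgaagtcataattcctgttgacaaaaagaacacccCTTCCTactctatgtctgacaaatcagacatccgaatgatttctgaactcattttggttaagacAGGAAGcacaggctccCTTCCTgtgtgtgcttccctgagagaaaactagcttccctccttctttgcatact
Bcl11a, chr11:24080445-24080669: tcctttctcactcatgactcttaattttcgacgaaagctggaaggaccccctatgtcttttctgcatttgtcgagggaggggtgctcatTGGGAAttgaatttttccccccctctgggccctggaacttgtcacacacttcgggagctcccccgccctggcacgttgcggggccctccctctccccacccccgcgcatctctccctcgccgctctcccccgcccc
The Ikzf1 stretch at the upstream start was 82.0% G and C and held neither core. At the second start the 250 bases were 47.6% G and C and held AGGAAG 3 times, a core present in 29.5% of 32851 promoter windows of that length. Bcl11a held TGGGAA 1 time in 225 bases, and 19.7% of all windows of that length held it. All 3 stretches are upstream of a start of their gene and lie in introns of its other annotated transcripts that begin further upstream. The matches describe the letters only, and no binding was measured.

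Ikaros was the most abundant member. In WT mice Ikzf1 was at 5.58 and 4.29 FPKM (replicates 1 and 2) at the pre-pro-B stage and at 4.76 FPKM at the pro-B stage. In Lf-/- mice it was at 8.0 and 16.5 FPKM at the earlier stage and at 6.40 and 6.31 FPKM at the later one. All 4 Lf-/- libraries were above all 3 WT libraries, with the highest value in Lf-/- pre-pro-B replicate 2. At the pre-pro-B stage the group means were 4.94 ± 0.910 (SD, n = 2) for WT and 12.3 ± 6.03 (SD, n = 2) for Lf-/-. In the pro-B stage the mean of the Lf-/- libraries was 6.36 ± 0.0579 (SD, n = 2). In these bulk libraries, fewer cells that express a gene and less RNA per cell cannot be told apart.

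Aiolos, encoded by Ikzf3 at chr11:98464902-98546031 on the minus strand (ENSMUSG00000018168), is the family member best known for its increase as B cells mature. Among WT libraries Ikzf3 was at 1.47 and 0.351 FPKM in the pre-pro-B stage and 0.472 FPKM in the pro-B stage. The Lf-/- values were 3.71 and 4.08 FPKM, then 3.24 and 1.62 FPKM. The genotypes did not overlap, but the lowest Lf-/- value, 1.62, lay close to the highest WT value, 1.47. Pre-pro-B means were 0.909 ± 0.789 (SD, n = 2) for WT and 3.90 ± 0.265 (SD, n = 2) for Lf-/-, whose pro-B mean was 2.43 ± 1.15 (SD, n = 2). Its mean over the 4 Lf-/- libraries was 4.15 times the mean over the 3 WT libraries, against 1.91 for Ikzf1 and 2.29 for Bcl11a.

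Bcl11a had WT values of 0.90 and 0.903 FPKM at the earlier stage and 0.590 FPKM at the later stage. Its Lf-/- values were 1.12 and 3.31 FPKM for pre-pro-B and 1.32 and 1.55 FPKM for pro-B cells. Again every Lf-/- library was above every WT library, and Lf-/- pre-pro-B replicate 2 was the highest. For pre-pro-B cells the mean was 0.902 ± 0.00253 (SD, n = 2) for WT and 2.21 ± 1.55 (SD, n = 2) for Lf-/-, whose pro-B mean was 1.44 ± 0.164 (SD, n = 2).

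The other members were scarce. Ikzf5, which encodes Pegasus and lies at chr7:131388652-131410521 on the minus strand (ENSMUSG00000040167), was at 0.557, 0.438 and 0.512 FPKM in the WT libraries (pre-pro-B replicates 1 and 2, then pro-B). In the Lf-/- libraries it was at 0.784 and 0.0543 in pre-pro-B and at 0.805 and 0.595 in pro-B cells. Its other Lf-/- values were above every WT value, while Lf-/- pre-pro-B replicate 2 was the lowest library of all. After each library was scaled by its median ratio to the others, WT pro-B (0.694) was above both Lf-/- pro-B libraries (0.682 and 0.527). Ikzf2, encoding Helios, a factor known from T cells and stem cells, lies at chr1:69531214-69687245 on the minus strand (ENSMUSG00000025997). The WT FPKM was 0.309 and 0.0702 for the pre-pro-B replicates and 0.262 for pro-B, and the Lf-/- FPKM was 0.0353 and 0.110, then 0.498 and 0.269. These values overlapped between genotypes. Ikzf4, encoding Eos, which acts with Foxp3 in regulatory T cells, lies at chr10:128630843-128645991 on the minus strand (ENSMUSG00000002578). It was listed at 0 in all 4 pre-pro-B libraries and in Lf-/- pro-B replicate 2, and was at 0.0241 FPKM in the WT pro-B library and 0.0133 in Lf-/- pro-B replicate 1.

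**Figure D1:**
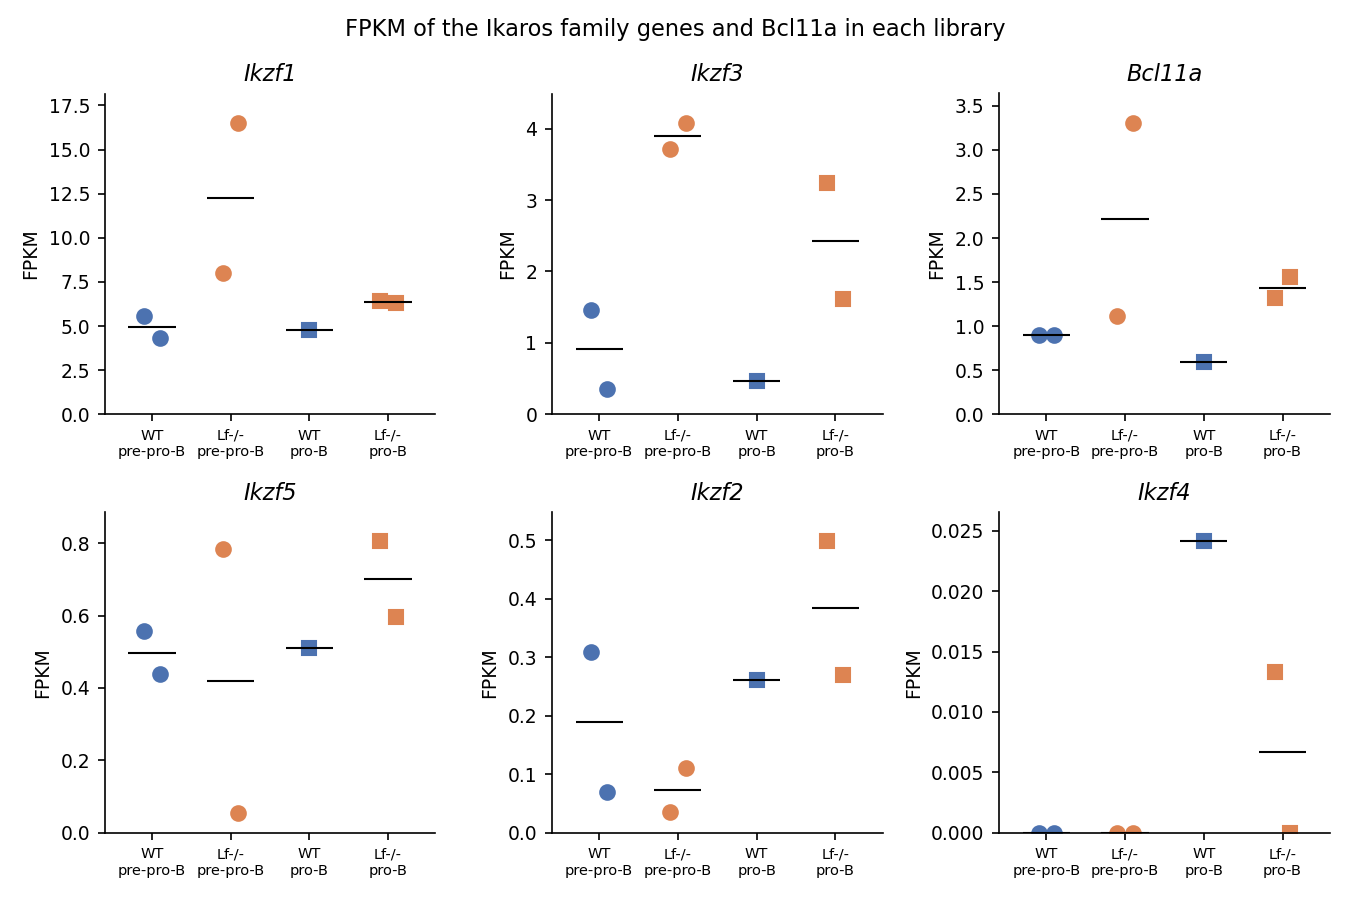
FPKM (vertical axes, 1 scale per gene) of the 6 genes in the 4 groups (horizontal axes), with 1 point per library and a line at the group mean (WT blue, Lf-/- orange). Ikzf1, Ikzf3 and Bcl11a have all 4 Lf-/- points above the 3 WT points, and Ikzf4 is at or near 0 throughout.

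Depth sets how firmly these levels can be read. Spread over its longest transcript, Ikzf1 corresponded to 264 to 502 fragments in the 6 libraries with an estimated depth, Bcl11a to 49.1 to 143 and Ikzf3 to 19.3 to 186. Ikzf5 came to 23.1 to 40.6 fragments, Ikzf2 to 3.6 to 50.9 and Ikzf4 to 0 to 1.7. Ikzf1, Ikzf3 and Bcl11a passed the filter of at least 1 FPKM in at least 2 libraries and were tested. Ikzf1 reached 1 FPKM in 7 libraries, Ikzf3 in 5 and Bcl11a in 4. Since Ikzf3 and Bcl11a reached it mainly through Lf-/- libraries, the number of members that passed is not evidence of a difference.

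Below Ikzf1 the order of the levels differed between libraries of the same genotype. Ikzf1 was the highest and Ikzf4 the lowest member in all 7 libraries. Ikzf3 was next to Ikzf1 in the 4 Lf-/- libraries and in WT pre-pro-B replicate 1, whereas Bcl11a held that place in WT pre-pro-B replicate 2 and in WT pro-B. In the WT libraries the range of Ikzf3 held those of both Bcl11a and Ikzf5, so its place there differed between libraries, while Bcl11a was above Ikzf5 in each of them.

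In pre-pro-B cells, the question was whether these factors differed with lactoferrin loss at the earlier stage. Fitted by limma on log2(FPKM + 1), the Lf-/- minus WT difference was 1.09 (SE 0.45) for Ikzf1, 1.42 (SE 0.47) for Ikzf3 and 0.67 (SE 0.45) for Bcl11a. The unadjusted limma p was 0.0448 for Ikzf1, 0.0186 for Ikzf3 and 0.178 for Bcl11a, and each had an adjusted p of 0.792. None of the 3 passed an adjusted p of 0.05, as 0% of the 10793 genes tested did, while 528 genes had an unadjusted limma p under 0.05. In that stage 15.1% of the genes tested had both Lf-/- libraries above both WT libraries, as the 3 members did. Without Lf-/- pre-pro-B replicate 2 the difference was 0.61 for Ikzf1 and 0.16 for Bcl11a. Without replicate 1 of that group Ikzf1 and Bcl11a passed, with limma adjusted p of 0.0186 and 0.0309, as did 29.1% of all genes tested.

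In pro-B cells the difference was 0.35 (SE 0.55) for Ikzf1, 1.18 (SE 0.57) for Ikzf3 and 0.61 (SE 0.55) for Bcl11a. By limma the adjusted p was 0.838 for Ikzf1 and 0.822 for both Ikzf3 and Bcl11a, with 0% of the genes tested called and 467 at an unadjusted p under 0.05. Both Lf-/- pro-B libraries were above the single WT library for each of the 3 members, as for 75.3% of the genes tested. The median over all genes tested was itself 0.48 higher in Lf-/- pro-B cells on this scale. Relative to that median, Ikzf3 was higher by 0.70 and Bcl11a by 0.13, and Ikzf1 stood at -0.13. After each library was scaled by its median ratio to the others, the Ikzf1 difference was -0.20, with the 2 Lf-/- pro-B libraries below the WT pro-B library.

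Over both stages, the mean of the within-stage differences was 1.30 (SE 0.37) for Ikzf3, 0.72 (SE 0.35) for Ikzf1 and 0.64 (SE 0.35) for Bcl11a. The median of all genes was 0.25, which left 1.05, 0.47 and 0.39 above it in the same order. Ikzf3 had an unadjusted limma p of 0.00964 and an adjusted p of 0.578, at rank 179 of 10793 genes by p. Ikzf1 and Bcl11a had an limma adjusted p of 0.729, with unadjusted values of 0.0807 and 0.112. Here 3 genes, 0.0278% of those tested, passed the adjusted threshold, and no member was among them. Without Lf-/- pre-pro-B replicate 1, which leaves the library of 12172 genes alone in its group, all 3 members passed, with limma adjusted p of 0.0315 for Ikzf1, 0.0468 for Ikzf3 and 0.0333 for Bcl11a, as did 22.8% of all genes tested.

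Every Lf-/- library lay above every WT library for Ikzf1, Ikzf3 and Bcl11a, and for 9.87% of all genes tested. Bcl11a had passed the filter through its Lf-/- libraries alone and Ikzf3 through those and 1 WT library, so nothing is read from how many members did so. After median-ratio scaling this held for Bcl11a alone, beside 5.16% of all genes. On the scaled values Ikzf3 missed it narrowly, since Lf-/- pro-B replicate 2 and WT pre-pro-B replicate 1 both lay near its boundary, at 1.43 and 1.45 scaled FPKM. Ikzf1 missed it because the WT pro-B library, at 6.46 scaled FPKM, was above both Lf-/- pro-B libraries, at 5.42 and 5.59.

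**Figure D2:**
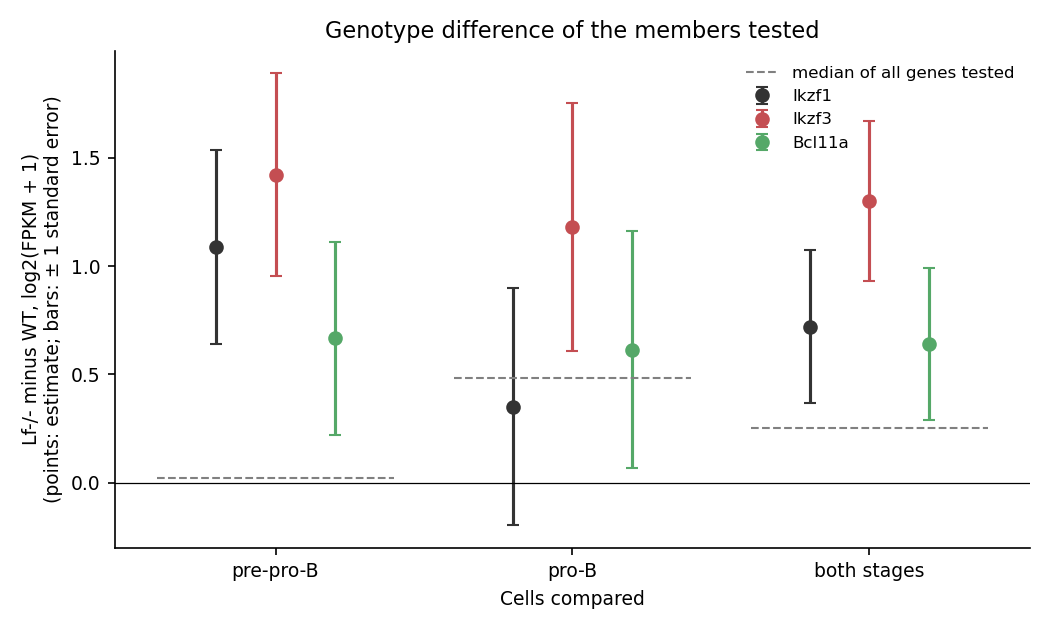
Lf-/- minus WT difference on log2(FPKM + 1) (vertical axis) for the 3 members tested, in pre-pro-B cells, pro-B cells and over both stages (horizontal axis). Points are limma estimates with bars of ± 1 standard error and dashed lines mark the median of all genes tested; Ikzf3 is highest in each comparison, at 1.42, 1.18 and 1.30.

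Stage comparisons asked how the factors differed between pre-pro-B and pro-B cells of 1 genotype. In Lf-/- cells the pro-B minus pre-pro-B difference was -0.77 (SE 0.45) for Ikzf1, -0.55 (SE 0.47) for Ikzf3 and -0.31 (SE 0.45) for Bcl11a, with limma adjusted p of 0.798, 0.829 and 0.906. Of all genes tested 0% were called there, and 618 had an unadjusted limma p under 0.05. Without Lf-/- pre-pro-B replicate 1 Ikzf1 passed, with a limma adjusted p of 0.0304, as did 27.6% of all genes tested. In WT cells, with 1 pro-B library, the values were -0.034 (SE 0.55) for Ikzf1, -0.31 (SE 0.57) for Ikzf3 and -0.26 (SE 0.55) for Bcl11a. The limma adjusted p was 1 for each, 0% of genes were called and 81 had an unadjusted p under 0.05. The difference between the stages in the genotype effect was also tested. It was -0.74 (SE 0.71) for Ikzf1, -0.24 (SE 0.74) for Ikzf3 and -0.054 (SE 0.70) for Bcl11a, with limma adjusted p of 0.99, 0.995 and 0.999. For this test 0% of genes were called and 296 had an unadjusted limma p under 0.05, so no genotype effect of a member was shown to depend on the stage.

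Family members pair with each other, so the make-up of their summed signal was computed within each library, where scaling between libraries cancels. Of the summed FPKM of Ikzf1 to Ikzf5, Ikzf1 took 70.5% and 83.3% (pre-pro-B) and 79.0% (pro-B) in WT mice, and 63.8% and 79.5% (pre-pro-B) and 58.4% and 71.8% (pro-B) in Lf-/- mice. The Ikzf3 shares in the same order were 18.5%, 6.82% and 7.82% for WT, and 29.6%, 19.7%, 29.6% and 18.4% for Lf-/-. The Ikzf3 share was lowest in WT pre-pro-B replicate 2 and WT pro-B, and WT pre-pro-B replicate 1 lay just above the lowest Lf-/- library. The ratio of Ikzf3 to Ikzf1 was 0.0818 to 0.263 in the WT libraries and 0.247 to 0.507 in the Lf-/- libraries. Its log2 was higher in Lf-/- by 1.54, averaged over the stages, with an exact permutation p of 0.111 (two-sided, 18 arrangements within stage, smallest possible p 0.0556; adjusted p 0.333 over 3 ratios). Bcl11a to Ikzf1 differed by 0.36 (exact permutation p = 0.389, adjusted p = 0.389), and Bcl11a to Ikzf3 by -1.17 (exact permutation p = 0.222, adjusted p = 0.333). With so few libraries this test could not have passed 0.05 for any ratio.

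**Figure D3:**
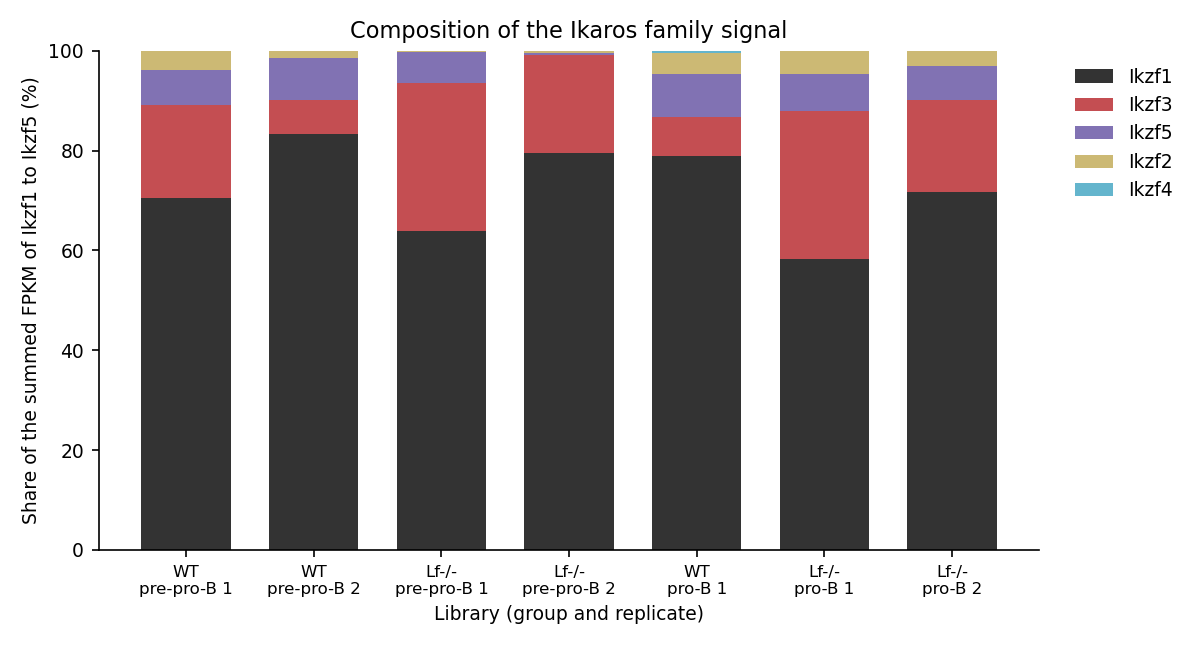
Share of the summed FPKM of Ikzf1 to Ikzf5 (vertical axis, %) held by each of the 5 genes in each library (horizontal axis). Ikzf1 holds 58.4% to 83.3% in every bar, and the Ikzf3 segment ranges from 6.82% in WT pre-pro-B replicate 2 to 29.6% in 2 Lf-/- libraries.

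Ikaros recruits corepressors, of which 13 of 17 listed genes were tested. Their median genotype difference over both stages was 0.41, with 12 of 13 above 0, beside a median of 0.25 and 71.3% above 0 over all genes. After median-ratio scaling it was 0.045, beside -0.046. Of these genes 1 had an unadjusted limma p under 0.05, beside 6.18% of all genes, and none passed the adjusted threshold. That gene was Mta3, a NuRD subunit found in B cells, at 2.16, 3.14 and 1.26 FPKM in the WT libraries (pre-pro-B replicates 1 and 2, pro-B) and had 3.07, 7.98, 5.97 and 3.29 FPKM across the Lf-/- libraries (pre-pro-B, then pro-B). Its difference was 1.01 (SE 0.41, limma adjusted p = 0.729), and its genotypes overlapped. Ctbp1, a corepressor that binds Ikaros outside NuRD, stood at 0.58, Sin3b, a scaffold for histone deacetylases, at 0.51, and Rbbp7, a histone-binding NuRD subunit, at 0.50.

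Cereblon (Crbn) is the substrate receptor through which drugs of the thalidomide class direct human Ikaros and Aiolos to degradation. Of 5 genes of its ligase 4 were tested, with a median over both stages of -0.0083 and no unadjusted limma p under 0.05 there. After median-ratio scaling the median was -0.32. Crbn stood at 0.40 over both stages (-0.43 in pre-pro-B cells and 1.23 in pro-B cells, the latter with an unadjusted limma p of 0.0349 and limma adjusted p = 0.822), the adaptor Ddb1 at -0.23, the scaffold Cul4a at -0.14 and the RING subunit Rbx1 at 0.12.

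Genes that Ikaros is known to restrain had a median of 1.71 over both stages, and 8 of 8 were above 0, beside 71.3% of all genes. Of these 5 had an unadjusted limma p under 0.05, beside 6.18% of all genes, and none passed the adjusted threshold. Vpreb2 and Vpreb1, which encode surrogate light chain subunits, were at 2.35 and 2.08 (limma adjusted p = 0.645 and 0.729). Dntt, the polymerase that adds untemplated bases at V(D)J joints, was at 2.10 (limma adjusted p = 0.622), and Igll1, the other part of the surrogate light chain, was at 1.79 (limma adjusted p = 0.645). All 4 are also in the early B lineage list. Dtx1, also in the list, had passed the filter through Lf-/- libraries alone. Hes1, a Notch target named after its values were seen, was at 1.54 to 3.73 FPKM in WT and 5.68 to 12.6 in Lf-/- libraries. It was the 1 gene of the 8 with every Lf-/- library above every WT library, beside 9.87% of all genes. Nothing is read from that count.

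Lymphoid genes that need Ikaros had 3 of 4 members tested, with a median of 1.20. Il7r, the interleukin 7 receptor chain on which B cell progenitors depend, was at 2.25, 2.25 and 1.48 FPKM in the WT libraries against 10.2, 21.2, 8.06 and 4.33 FPKM across the Lf-/- libraries, in that order. Its genotypes did not overlap, and the difference was 1.88 (SE 0.39, limma adjusted p = 0.328). Rag1, a subunit of the recombinase that cuts at V(D)J segments, was at 0.166, 0.162 and 0 FPKM in the WT libraries against 1.41, 1.81, 0.893 and 0.338 FPKM across the Lf-/- libraries. That difference was 0.92 (SE 0.28, limma adjusted p = 0.60), and the gene had passed the filter through the 2 Lf-/- pre-pro-B libraries alone. Flt3, a cytokine receptor of lymphoid progenitors, differed by 1.20, and its 38.3 FPKM in Lf-/- pre-pro-B replicate 2 was far above the 2.69 to 7.47 of the other libraries. Il7r and Rag1 are also in the early B lineage list. Both sets, of opposite known response to Ikaros, thus had positive medians, but both share genes with that list. After median-ratio scaling the medians were 1.36 and 0.85. The part of Ikaros in either was not tested.

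Of the relatives and partners of Bcl11a, 3 of 5 were tested, with a median of 0.51, or 0.11 after median-ratio scaling. Tcf4, the E protein that is a main factor of plasmacytoid dendritic cells, stood at 0.98, Id2, an inhibitor of E proteins, at 0.51, and Zbtb7a, which with Bcl11a represses fetal globin genes, at 0.080. None had an unadjusted limma p under 0.05. Bcl11b, the T cell relative of Bcl11a, and Bcl6 did not pass the filter.

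**Figure D4:**
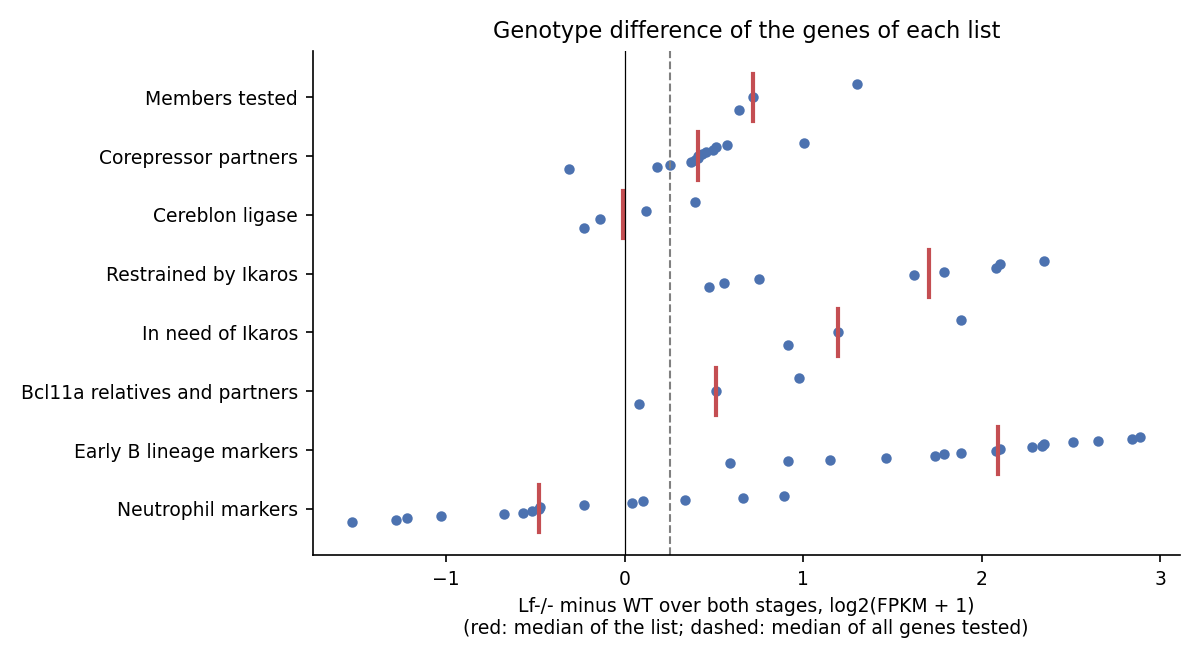
Lf-/- minus WT difference over both stages on log2(FPKM + 1) (horizontal axis) of each gene tested in 8 lists (rows), with 1 point per gene, red bars at the list medians and a dashed line at the median of all genes tested, 0.25. The members' median is 0.72, below the 2.09 of the early B lineage markers, and that of the neutrophil markers is -0.48.

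The members are used by several cell types, so markers of those cells were summed in each library. Early B lineage markers made up 0.0291% to 0.0823% of the summed FPKM in the WT libraries and 0.229% to 0.444% in the Lf-/- libraries, without overlap. Over both stages, 16 of 16 tested early B genes were above 0 with a median of 2.09, and 15 had an unadjusted limma p under 0.05, none passing the adjusted threshold, beside 71.3% above 0 and 6.18% under 0.05 over all genes. In this list Rag2 and Bst1 were at 0 in Lf-/- pre-pro-B replicate 2, and Rag1 was at 0 in WT pro-B. Rag1 had passed the filter through the 2 Lf-/- pre-pro-B libraries alone, so nothing is read from its part in these counts. Mature B cell markers, at 0.00497% to 0.00725% in WT and 0.0228% to 0.0575% in Lf-/- libraries, did not overlap either. Of the tested genes 8 of 8 were above 0, beside 71.3% of all genes, and none passed the adjusted threshold. Cxcr5, 1 of them, had passed the filter through Lf-/- libraries alone. The levels of Ikzf1, Ikzf3 and Bcl11a were therefore higher in the same libraries that had more early and mature B cell marker RNA, and the part of this in the members' differences was not tested.

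Plasmacytoid dendritic cell markers, of interest because those cells use Bcl11a, were at 0.0289% to 0.0655% in WT and 0.155% to 0.480% in Lf-/- libraries. Most of that sum was Ly6d, which B cell progenitors also express. Of the tested genes 9 of 10 were above 0, beside 71.3% of all genes. Ly6d and Tcf4, 2 of the 10, had no overlap between genotypes, beside 9.87% of all genes with every Lf-/- library higher. Tcf4 and Pacsin1 had passed the filter through Lf-/- libraries alone. T and NK cell markers took 0.110% to 0.169% in WT and 0.0680% to 0.146% in Lf-/- libraries. Nkg7, at -1.01 over both stages, made up most of that sum. Of the tested genes 11 of 12 were above 0, against 71.3% of all genes. An unadjusted limma p under 0.05 was found for 3, against 6.18% of all genes. Cd3e, Cd8a, Zap70 and Klrb1c had passed the filter through Lf-/- libraries alone, so nothing is read from these counts. In Lf-/- pre-pro-B replicate 2, where Ikzf1 and Bcl11a were highest, 9 of 17 T and NK genes were at 0, among them Cd3g, Cd4, Cd5, Thy1 and Zap70, while Gzma (55.6 FPKM), Lck (34.4), Cd8b1 (13.1) and Cd8a (2.25) had their highest values of the 7 libraries there. Stem and progenitor markers at 0 there included Kit, Hlf, Hoxa9, Mecom and Meis1, while Flt3 (38.3 FPKM) and Cd34 (4.33 FPKM) were at their highest. The list took 0.00887% to 0.0137% in WT and 0.00446% to 0.0168% in Lf-/- libraries, with 2 of 4 tested genes above 0, beside 71.3% of all genes.

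Neutrophil markers took 37.3% to 51.7% of the summed FPKM in WT libraries and 24.2% to 38.7% in Lf-/- libraries. The lowest share, 24.2%, was in the library with the highest Ikzf1, Ikzf3 and Bcl11a values. Above 0 over both stages were 5 of 15 tested genes, beside 71.3% of all genes. After median-ratio scaling 2 of 15 were above 0, beside 4898 of the 10793 genes tested. Monocyte and macrophage markers took 0.136% to 0.264% in WT and 0.0977% to 0.217% in Lf-/- libraries, and erythroid markers 1.91% to 7.0% and 3.55% to 15.2%. Of these lists 8 of 10 and 9 of 10 genes were above 0, beside 71.3% of all genes. With median-ratio scaling they were 3 of 10 and 5 of 10, beside the same 4898 of 10793 genes. Both of these ranges overlapped between genotypes, and the part of any of these markers in the members' values was not tested.

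**Figure D5:**
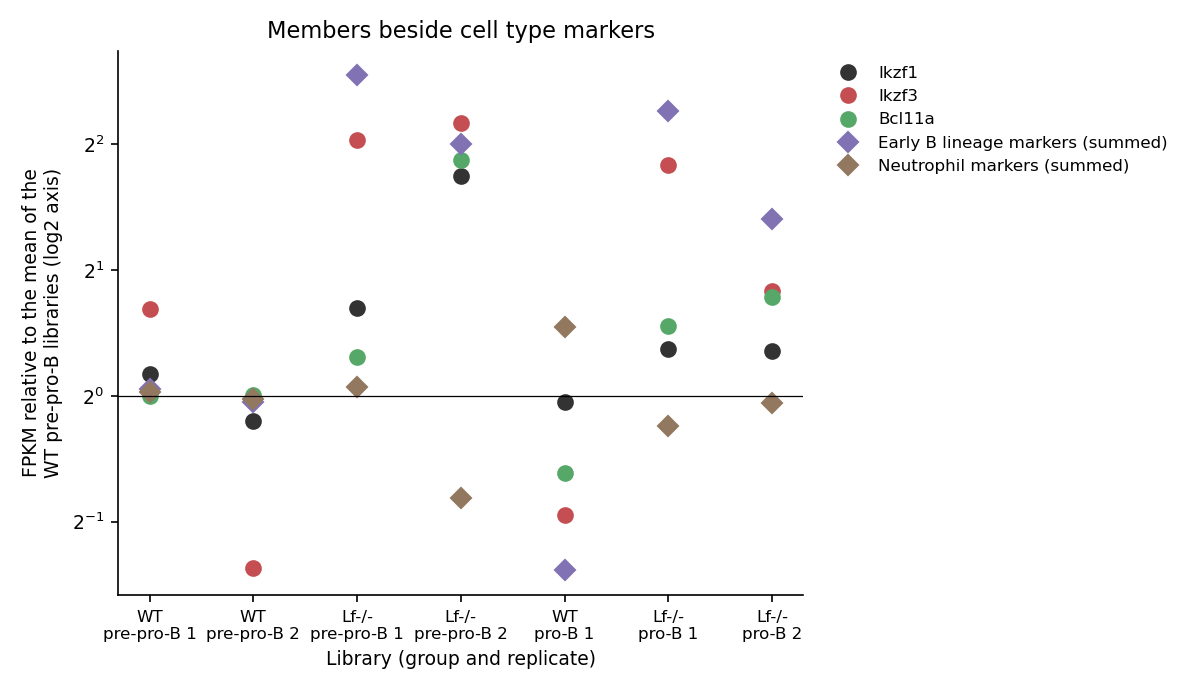
FPKM relative to the mean of the WT pre-pro-B libraries (vertical axis, a ratio on a log2-spaced axis) in each library (horizontal axis), with circles for Ikzf1, Ikzf3 and Bcl11a and diamonds for summed early B lineage and neutrophil markers. The early B markers lie above a ratio of 1 in the 4 Lf-/- libraries, as do the 3 members, and below it in WT pro-B.

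Genes most like each member over the 7 libraries were ranked by Pearson's r of log2(FPKM + 1), as a description of libraries that share their depth and cell make-up. For Ikzf3 the leading gene was Foxo1, a transcription factor needed for Il7r and Rag expression, with r = 0.993 over 7 libraries and 0.995 without Lf-/- pre-pro-B replicate 2. Foxo1 had 2.80, 0.999 and 1.08 FPKM in the WT libraries and 8.55, 7.93, 7.61 and 2.92 FPKM in the Lf-/- libraries, each in the order pre-pro-B replicates, then pro-B. Like Ikzf3 it had its lower WT pre-pro-B value in replicate 2 and its lower Lf-/- pro-B value in replicate 2. Because Foxo1 was picked for the highest r among 7622 genes, nothing is read from this shared order. Emid1 and Ero1lb followed, at 0.991 each. For Ikzf1 the leading genes were Tgfbr1, a receptor for TGF-beta (0.995), Wtap, a subunit of the RNA methyltransferase complex (0.992), and Senp1, a SUMO protease (0.987). For Bcl11a they were Ppcdc, an enzyme of coenzyme A synthesis (0.998), Rpusd4 (0.997) and Gle1, a factor of mRNA export (0.995).

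The members resembled each other less closely. Over the 7 libraries r was 0.92 between Ikzf1 and Bcl11a, 0.80 between Ikzf1 and Ikzf3, and 0.70 between Ikzf3 and Bcl11a. Without Lf-/- pre-pro-B replicate 2 it was 0.62 for Ikzf1 and Bcl11a, so the closeness of that pair rested on this library, and 0.95 for Ikzf1 and Ikzf3.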

How the data were processed

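RNA-seq of sorted bone marrow cells gave 1 table of gene values per library. The deposited values were FPKM per gene made by the authors; TopHat, Cufflinks, HTSeq and DESeq are named in the submitters' processing notes with the GRCm38 build, without versions. The tables of 7 libraries were joined, and 52403 of 52550 genes matched GENCODE M21 by identifier. Depth was estimated from the spacing of the lowest FPKM values times length in genes of 1 transcript of at least 800 bases, and intervals from it would cover counting error only. Fragments per member are FPKM times the longest transcript and this depth, an upper value.

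Genes at 1 FPKM or more in at least 2 libraries (10793) were tested with limma 3.58.1 in R 4.3.3 on log2(FPKM + 1), with the variance trend and 4 groups sharing 1 spread, and Benjamini-Hochberg adjustment over all genes at 0.05. The genotype difference over both stages is the mean of the within-stage differences. Lists were described by counts and medians. Members were always named, with at most 4 genes per list by size of the genotype difference and 3 most-correlated protein-coding genes per tested member (mean log2 value of at least 1). Members and lists were chosen with earlier results of these data known. Libraries with the observed spread were simulated for the genotype difference over both stages (10793 genes, 200 changed by 2 on the log2 scale). The sign was recovered for 100% of the changed genes, an unadjusted limma p under 0.05 for 93.5% and an adjusted call for 16.5%. At 0.25 times that spread 98% were called, beside 10 false calls. Every member difference in the main fit was below 2, so these shares do not describe the members. Alternatives were other scalings, filters, a pseudocount of 0.1, a replicate block, fits on part of the libraries, and leaving out each library of a replicated group. The WT pro-B library, alone in its group, was not left out in turn. Whether libraries of the same replicate number shared a mouse could not be told, and the main fit did not pair them. Values used Python 3.11.15, numpy 2.4.6 and pandas 2.3.3. Promoter sequences came from RefSeq (GRCm38.p6). Some marker genes are not reported here.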

Additional observations from a re-analysis of the deposited data

How the results depend on the processing

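Of the results under the alternatives, 200 kept their direction and side of the threshold, 6 came to pass it and 13 reversed. The 6 all came from leaving out Lf-/- pre-pro-B replicate 1, where limma assumed that the remaining library, with 12172 genes above 0, varied like the other groups. Members called then numbered 2 in pre-pro-B cells, 3 over both stages and 1 for the stage difference in Lf-/- cells (range over libraries left out 0 to 2, 0 to 3 and 0 to 1), beside 3143, 2465 and 2974 of all 10793 genes, and 0 otherwise.

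Genotype differences over both stages kept their sign, from 0.31 to 0.96 for Ikzf1, 1.08 to 2.16 for Ikzf3 and 0.38 to 1.09 for Bcl11a. In pro-B cells Ikzf1 reversed to -0.20 (median-ratio scaling) and -0.25 (quantile normalization). Its WT stage difference became 0.30 and 0.32 under these scalings, 0.071 under the replicate block and 0.12 without WT pre-pro-B replicate 1, which also turned that of Ikzf3 to 0.12. Without Lf-/- pre-pro-B replicate 2 the Bcl11a stage difference in Lf-/- cells was 0.20 and its interaction with genotype 0.46; that interaction was 0.13 with a pseudocount of 0.1 and 0.015 without Lf-/- pro-B replicate 1. The Ikzf3 interaction was 0.19 without WT pre-pro-B replicate 2 and 0.10 without Lf-/- pro-B replicate 2. With 1 library left out at a time, the WT stage difference ranged from -0.19 to 0.12 for Ikzf1 and from -0.74 to 0.12 for Ikzf3, the Bcl11a stage difference in Lf-/- cells from -0.82 to 0.20, and the interaction from -0.68 to 0.19 for Ikzf3 and from -0.57 to 0.46 for Bcl11a. The WT pro-B library was not among those left out, and the cause of these reversals was not tested.

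The r of replicate deviations was 0.039 between WT and Lf-/- pre-pro-B and 0.053 between WT pre-pro-B and Lf-/- pro-B. These groups differ in genotype, so their replicates cannot share a mouse. Between Lf-/- pre-pro-B and Lf-/- pro-B it was -0.013, from too few libraries to decide whether those of the same replicate number shared a mouse. With 1 WT pro-B library the WT stages could not be compared in this way. With the replicate block the genotype difference over both stages was 0.67 for Ikzf1, 1.42 for Ikzf3 and 0.54 for Bcl11a. A block within genotype called 107 genes for the stage difference in Lf-/- and 29 in WT cells, with 1 residual degree of freedom. There limma pooled the spread over all genes, with 10793 total degrees of freedom against 7.03 in the main fit. Nothing is read from these calls.

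Called genes over the whole table moved more. The 3 over both stages became 150 with no filter, 12 with a stricter one, 0 with a pseudocount of 0.1, and 0 to 2465 with 1 library left out. No filter called 256 genes in pro-B cells, 240 for the WT stage difference and 122 for the interaction, and a stricter filter called 3 in pre-pro-B cells. Leaving out 1 library gave 0 to 3143 in pre-pro-B cells, 0 to 1 in pro-B cells, 0 to 2974 for the stage in Lf-/-, 0 to 1 in WT and 0 to 523 for the interaction. Alternatives chosen after seeing the data left 1 member with every Lf-/- library above every WT library under median-ratio scaling, with or without Lf-/- pre-pro-B replicate 2, and 3 members on FPKM without that library, beside 16.4% of genes tested.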
